A study of Mus musculus with 6 samples.

Results

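The glutathione peroxidases are encoded in the mouse by 8 genes, Gpx1 to Gpx8, and their expression was compared between the livers of ARSB-null and control mice. A gene was included when a probe set of the array carried its symbol and no other. Where a gene had several such probe sets, the one reported was chosen by the highest mean signal over all 6 arrays, so these mean signals are not a finding. All 8 genes were found, among 19938 genes named in this way, with 9 probe sets in all, since Gpx4 had 2 and each of the others had 1. The family was chosen with the difference of Gpx6 already known, so the values below describe it and are not an independent test of it.

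The ARSB-null group held 3 mice homozygous for loss of ARSB (arylsulfatase B, the lysosomal enzyme that removes 4-sulfate groups from chondroitin 4-sulfate and dermatan sulfate), and the control group held 3 C57BL/6J mice. All were untreated males aged 12 weeks on the C57BL/6J background, numbered 4, 5 and 6 in both groups, and 1 liver was hybridized to each array. The ARSB-null animals came from a colony bred from heterozygous founders, and the sources used here do not say that the controls were their littermates, so genotype and colony cannot be told apart. Values are log2 signals of the array, on which a difference of 1 is a 2-fold change, and differences are ARSB-null minus control.

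Glutathione peroxidases reduce hydrogen peroxide and organic hydroperoxides to water and alcohols, with electrons taken from glutathione. In the mouse, GPX1 to GPX4 carry selenocysteine in the active site and depend on selenium, whereas GPX5 to GPX8 carry cysteine in its place. The liver is a main site of glutathione synthesis. GPX1 is its chief cytosolic form, and GPX4 is the form that reduces lipid hydroperoxides within membranes and so protects cells from ferroptosis.

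Gpx6 had more signal in every ARSB-null liver than in any control liver, and none of the 8 genes passed the test over the whole array. Gpx6 encodes a peroxidase known in rodents from the olfactory mucosa. The ARSB-null livers numbered 4, 5 and 6 had log2 signals of 7.21, 7.76 and 7.31, against 6.24, 6.17 and 5.99 in the control livers of the same numbers. The lowest ARSB-null liver lay 0.97 above the highest control liver on the log2 scale, more than the whole range within the ARSB-null group (0.55) or within the control group (0.25). The means were 7.43 ± 0.29 in ARSB-null and 6.13 ± 0.13 in control liver (SD, n = 3 each), which differ by 1.30 (standard error 0.17). This was a 2.45-fold higher signal in ARSB-null liver, with a 95% interval of 1.87 to 3.22. The control mean lay below the array medians (6.50 to 6.60), so whether Gpx6 was above background in control liver is not known. The adjusted p was 0.188 from limma over all 35556 probe sets, so the difference did not pass the threshold of 0.05. Between livers of the same number the log2 difference was 0.97, 1.59 and 1.32 for numbers 4, 5 and 6. By p, Gpx6 stood at place 21 of all probe sets, and by the size of a positive difference at place 32.

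**Figure D1:**
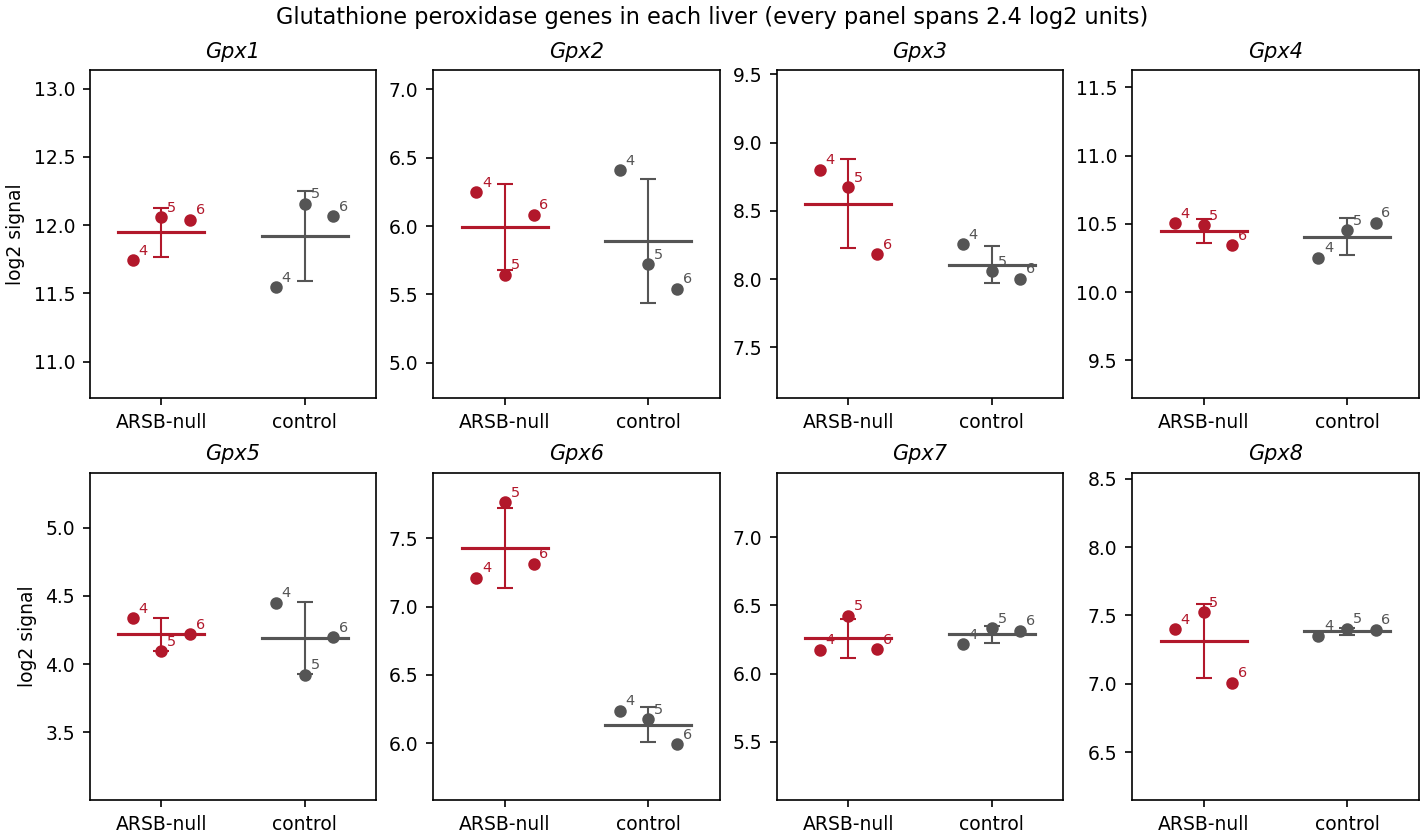
Log2 signal (vertical axis) of the 8 glutathione peroxidase genes in each ARSB-null (red, left) and control (grey, right) liver; the digits are mouse numbers, horizontal lines mark the mean and whiskers the SD (n = 3), and every panel spans the same number of log2 units. The ARSB-null points of Gpx6 run from 7.21 to 7.76 and its control points from 5.99 to 6.24, and the groups overlap in the other 7 panels.

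Over the whole array, 0.0197% of the probe sets were past the threshold, 0.00562% higher and 0.0141% lower in ARSB-null liver, and of the 8 members 0 were past it in either direction. At an unadjusted p under 0.05, 2 members were higher (Gpx6 and Gpx3) and 0 were lower, where 2.75% of all probe sets were higher and 3.19% were lower, 5.94% together. The groups did not overlap for 1 member, Gpx6, whereas 5.14% of all probe sets lay without overlap higher and 6.78% lower in ARSB-null liver, 11.9% together. The mean was higher in ARSB-null liver for 6 members and lower for 2, and the median log2 difference of the 8 was 0.034, against 0.0015 over all probe sets. Whole liver was measured, so fewer cells of a type and less RNA per cell cannot be told apart in these values.

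The call of Gpx6 depended on the probe sets tested with it and on the weighting of the arrays. When testing was limited to the 21789 probe sets with a single symbol, its log2 difference was again 1.30 and its adjusted p was 0.0129 from limma. Limited to the 17778 probe sets above the median signal, its adjusted p was 0.0730 from limma. With arrays weighted by their quality the difference was 1.41 and the adjusted p 0.0398 from limma. With the mouse number as a block the adjusted p was 0.277 from limma, and without any 1 of the arrays it was between 0.219 and 0.556, with a difference of 1.13 to 1.40. The arrays numbered 4 were the most alike across the groups in their deviations from the group means (correlation 0.396 over probe sets), and without both of them the difference was 1.46 and the adjusted p 0.284 from limma.

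**Figure D2:**
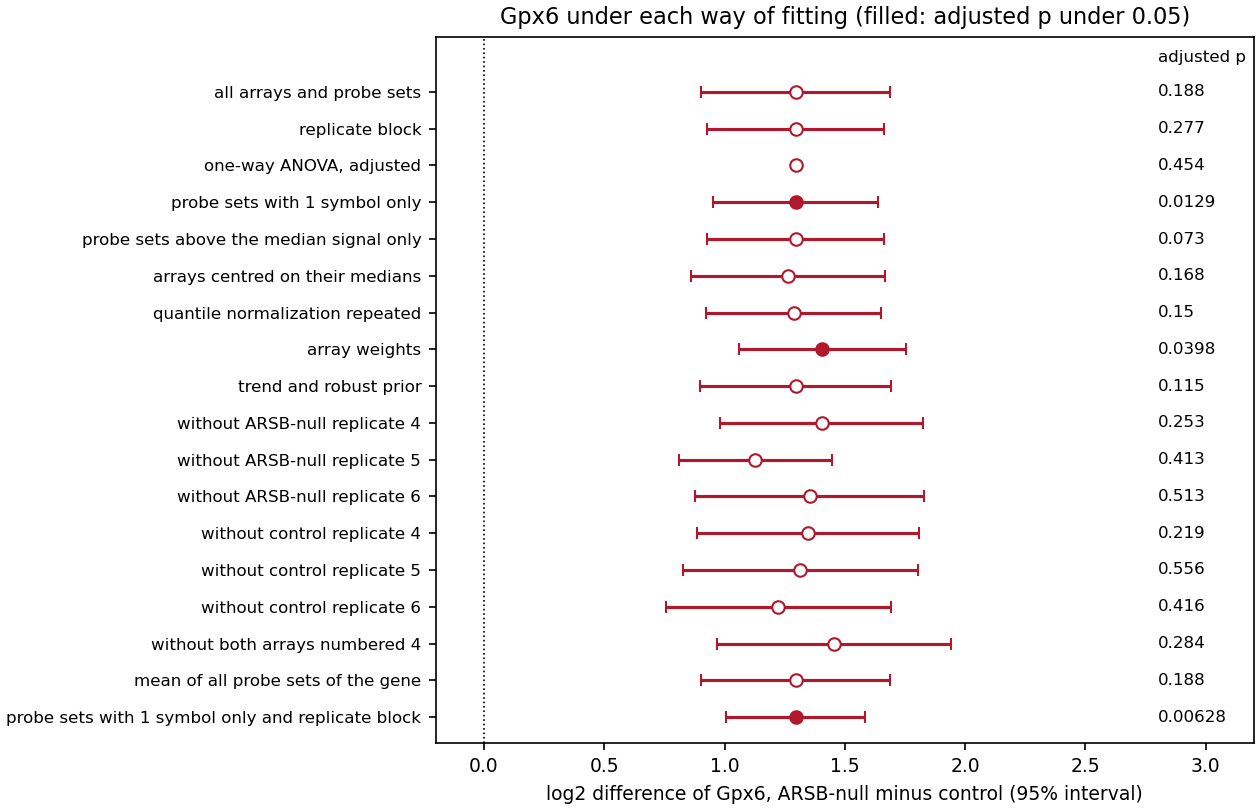
Log2 difference of Gpx6, ARSB-null minus control (horizontal axis, with its 95% interval; none is drawn for the one-way analysis of variance) for each way of fitting (rows), with the adjusted p on the right and filled points where it is under 0.05. The difference lies between 1.13 and 1.46 throughout, and the points are filled with 1 symbol per probe set, with array weights, and with 1 symbol and the replicate block together.

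The start of Gpx6 is shown because Gpx6 was the member with the largest difference and because the study's question concerns MITF, a factor of the family whose members bind the E-box CACGTG. The 250 bases before its RefSeq start site (GRCm38.p6, plus strand, chr13:21311953-21312202) are given 5′ to 3′, with the E-box in capitals.
Gpx6: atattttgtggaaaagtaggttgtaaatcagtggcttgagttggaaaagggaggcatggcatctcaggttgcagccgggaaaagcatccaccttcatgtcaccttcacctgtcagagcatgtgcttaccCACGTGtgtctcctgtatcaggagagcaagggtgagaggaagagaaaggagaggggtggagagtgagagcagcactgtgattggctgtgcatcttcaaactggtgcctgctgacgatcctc

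The letters CACGTG, which read the same on both strands, occurred 1 time in this stretch, beginning 121 bases before the start site. They occurred in 6.02% of the 32851 stretches of the same length in the RefSeq table, and in none of those before the start sites of the other 7 members (4 start sites for Gpx4 and 1 for each of the others). The core of the antioxidant response element, searched as TGACNNNGC on both strands, occurred before 0 of the members' start sites and in 10.2% of all stretches. The shorter letters CAGGT, which the study gives for its MITF site in the GPNMB promoter, are not marked. They occurred 2 times in the stretch shown, counted on both strands, before a start site of 3 of the 8 members, and in 44.1% of all stretches. Such a match describes the letters and does not show that a factor binds there.

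Gpx5, the epididymal peroxidase, is the direct neighbour of Gpx6 on chromosome 13, where the 2 genes are read in opposite directions from start sites 19517 bases apart (GRCm38.p6). Its log2 signal was 4.34, 4.10 and 4.22 in ARSB-null and 4.45, 3.92 and 4.20 in control livers. The groups overlapped, and 10.1% of all probe sets of the array had a lower mean signal, so whether Gpx5 was above background is not known. The log2 difference was 0.03, with a 95% interval of -0.34 to 0.39 (adjusted p = 0.997 from limma). The other measured genes nearest to Gpx6 were Trim27 and Olfr1368 beyond Gpx5, and Olfr1367, Zscan12 and Zkscan3 on the other side. None of these 5 passed the threshold, and their log2 differences lay between -0.17 and 0.07, with overlap between the groups for all of them. Arsb lies on the same chromosome, and so does Gpx8.

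Other genes had a profile over the 6 livers like that of Gpx6. Likeness was taken as the root mean square difference of the log2 signals, each gene centred on its own mean, over 18261 named genes. The smallest values were those of Hpgds, the hematopoietic prostaglandin D synthase, with 0.19, Jchain, the joining chain of immunoglobulins, with 0.20, Lrtm1 with 0.21, Gpr137b-ps with 0.24 and Vcam1, a leukocyte adhesion molecule, with 0.26. All 5 had more signal in every ARSB-null liver than in any control liver, with log2 differences of 1.07 to 1.47, and Vcam1 was past the threshold (adjusted p = 0.0487 from limma). The probe sets are ranked on the same contrast that sets Gpx6 apart, so the likeness is a description.

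**Figure D3:**
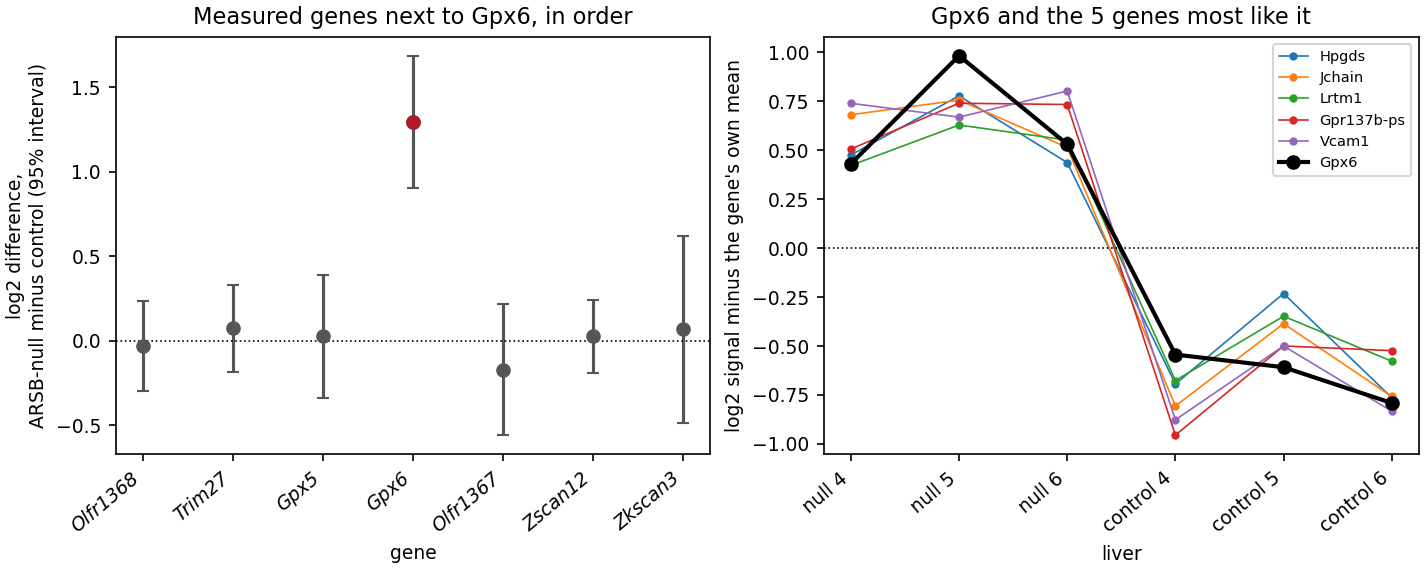
Left, difference in log2 signal, ARSB-null minus control (vertical axis, with 95% intervals) of Gpx6 (red) and the 3 measured genes on each side of it in chromosome order (horizontal axis). Right, log2 signal minus the gene's own mean (vertical axis) in each liver (horizontal axis) for Gpx6 (black) and the 5 genes with the most similar values, with lines joining the points of 1 gene; the neighbours lie between -0.17 and 0.07, against 1.30 for Gpx6.

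Gpx3 encodes the secreted peroxidase of blood plasma, made mainly in the kidney. The ARSB-null livers gave log2 signals of 8.80, 8.67 and 8.18, against 8.26, 8.06 and 8.002 in control livers. The ARSB-null liver numbered 6 lay below the control numbered 4, so the groups overlapped, although the ARSB-null liver was the higher one at each number (by 0.55, 0.62 and 0.18 for numbers 4, 5 and 6). The means were 8.55 ± 0.33 in ARSB-null and 8.11 ± 0.13 in control liver (SD, n = 3 each). The log2 difference was 0.45, with a 95% interval of 0.03 to 0.87, or 1.36-fold, and the adjusted p was 0.820 from limma.

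Gpx1 encodes the cytosolic and mitochondrial form. Its log2 signal was 11.74, 12.06 and 12.04 in ARSB-null and 11.55, 12.16 and 12.06 in control livers. Both livers numbered 4 were the lowest of their group, and the groups overlapped. The log2 difference was 0.02, with a 95% interval of -0.42 to 0.47 (adjusted p = 0.998 from limma), so changes of up to 1.38-fold upward lie within the interval.

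Gpx4, the phospholipid hydroperoxide peroxidase, was read by 2 probe sets. The brighter probe set gave a log2 signal of 10.50, 10.49 and 10.34 in ARSB-null and 10.25, 10.45 and 10.51 in control livers. The dimmer one gave 10.48, 10.34 and 10.36 in ARSB-null and 10.30, 10.39 and 10.47 in control livers. Both showed overlapping groups, with log2 differences of 0.04 (95% interval -0.23 to 0.31, adjusted p = 0.994 from limma) and 0.01 (-0.23 to 0.25, adjusted p = 0.998 from limma). Gpx4 had narrower intervals than Gpx1, Gpx2, Gpx3, Gpx5, Gpx6 or Gpx8, and a change beyond 1.24-fold upward lay outside the interval of both probe sets.

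Gpx2 encodes the form of the gastrointestinal epithelium. Its log2 signal was 6.25, 5.64 and 6.08 in ARSB-null and 6.41, 5.72 and 5.54 in control livers. It varied more than any other member within a group, over 0.60 in ARSB-null and 0.87 in control livers, except Gpx3 in ARSB-null livers (0.62). The log2 difference of 0.10 had the widest interval of the family, -0.51 to 0.71 (adjusted p = 0.993 from limma). The mean of Gpx2 over all arrays, 5.94, lay below the array medians, so whether Gpx2 was above background is not known.

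Gpx7 and Gpx8 encode the peroxidases of the endoplasmic reticulum, which use peroxide in the oxidative folding of proteins. Gpx7 had a log2 signal of 6.17, 6.43 and 6.18 in ARSB-null and 6.21, 6.33 and 6.31 in control livers, and Gpx8 had 7.40, 7.52 and 7.01 in ARSB-null and 7.35, 7.40 and 7.40 in control livers. The groups overlapped for both. The mean of Gpx7 over all arrays, 6.27, lay below the array medians, so whether Gpx7 was above background is not known. The control livers differed by no more than 0.05 for Gpx8, while the ARSB-null livers spanned 0.52, with the liver numbered 6 the lowest. The log2 difference was -0.03 for Gpx7 (95% interval -0.29 to 0.24, adjusted p = 0.995 from limma) and -0.07 for Gpx8 (-0.42 to 0.28, adjusted p = 0.993 from limma).

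**Figure D4:**
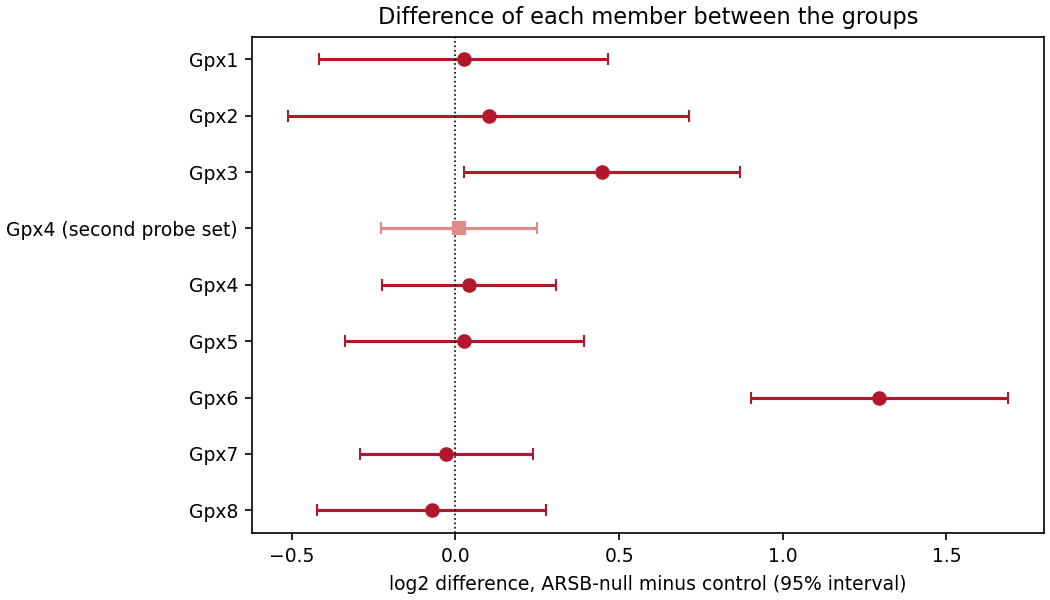
Difference in log2 signal, ARSB-null minus control (horizontal axis) for the 9 probe sets of the 8 genes (vertical axis), with 95% intervals from limma; the paler square is the dimmer probe set of Gpx4. The interval of Gpx6 (0.90 to 1.69) lies above 0 by the widest margin, that of Gpx3 (0.03 to 0.87) lies just above it, and the intervals of the other 7 probe sets span it.

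Among 6 lists of related genes, none held a gene past the threshold in either direction. At an unadjusted p under 0.05 from limma, 1 of their 88 measured genes was higher in ARSB-null liver (Hmox1) and 6 were lower (Glrx5, Dio1, Tfrc, Alox12, Ero1a and Ero1b), where 2.75% of all probe sets were higher and 3.19% lower. Glutathione is made by glutamate cysteine ligase and glutathione synthetase, regenerated by glutathione reductase, and used by glutaredoxins. The list of 19 genes also held some outside these steps, such as Ggt5, Chac1 and Slc7a11. Of the 19 genes 18 were measured, 5 with a higher and 13 with a lower mean in ARSB-null liver, and the median log2 difference was -0.12. Gclc, the catalytic subunit of the ligase, had a mean of 12.20 in ARSB-null and 12.34 in control liver, and Gsr, the reductase, had 10.53 in ARSB-null and 10.66 in control liver. The smallest p values belonged to Glrx5, the mitochondrial glutaredoxin of iron-sulfur cluster assembly (log2 difference -0.26, adjusted p = 0.790 from limma), Slc25a40, a mitochondrial carrier (-0.28), and Glrx (-0.15). These 3 of the 18 were lower in every ARSB-null liver than in any control liver, as were 6.78% of all probe sets.

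Selenocysteine is inserted by dedicated factors. Of the 10 genes on that list, which also held some outside insertion itself, such as Lrp8, 9 were measured. Their log2 differences had a median of -0.051, with Eefsec, the elongation factor (-0.15), Sepsecs, the selenocysteine synthase (-0.13), and Secisbp2l (-0.10) having the smallest p, and the groups overlapped for all 9. Of 19 selenoproteins outside the family, all were measured, 8 with a higher and 11 with a lower mean, with a median of -0.026. Selenop, the plasma selenium carrier that the liver secretes, averaged 12.98 in ARSB-null and 12.92 in control liver.

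Dio1, the hepatic deiodinase that converts thyroxine to its active form, stood apart on that list. Its log2 signal was 8.73, 9.48 and 9.39 in ARSB-null and 10.45, 10.70 and 10.39 in control livers, without overlap. The log2 difference was -1.31 (standard error 0.21), a 2.49-fold lower signal in ARSB-null liver that did not pass the threshold (adjusted p = 0.237 from limma). The next by p were Selenoo (0.18) and Selenow (-0.28), both with overlapping groups.

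Enzymes that remove peroxide or superoxide without glutathione include catalase, the peroxiredoxins and the superoxide dismutases. The list of 16 genes also held some that do not themselves remove either, such as Msra and Txnip. Of the 16 genes 14 were measured, 9 with a higher and 5 with a lower mean, and the median log2 difference was 0.023. Cat, catalase, averaged 13.54 in ARSB-null and 13.53 in control liver. The smallest p values belonged to Msra (-0.18), Txn2 (0.21) and Prdx2 (0.16), with adjusted p values of 0.931 to 0.964 from limma.

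Of 20 genes of lipid peroxidation and ferroptosis 19 were measured, with a median log2 difference of 0.023. Tfrc, the transferrin receptor that takes up iron, had 6.55, 6.92 and 7.43 in ARSB-null and 7.64, 8.05 and 7.72 in control livers, differing by -0.84 (adjusted p = 0.621 from limma). Alox12, a lipoxygenase of platelets, differed by -0.64 (adjusted p = 0.426) and Hmox1, the heme oxygenase, by 0.33 (adjusted p = 0.670 from limma). The groups did not overlap for Tfrc, Alox12 or Hmox1. On this list 1 gene lay above and 3 lay below the controls without overlap (5.14% and 6.78% of all probe sets did). Of 11 genes of oxidative folding in the endoplasmic reticulum, all were measured, with a median of -0.049. The oxidases that pass electrons to oxygen and release peroxide, Ero1a (-0.41, adjusted p = 0.621) and Ero1b (-0.47, adjusted p = 0.659 from limma), were lower in every ARSB-null liver than in any control liver, and Qsox1 differed by -0.14 with overlap.

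**Figure D5:**
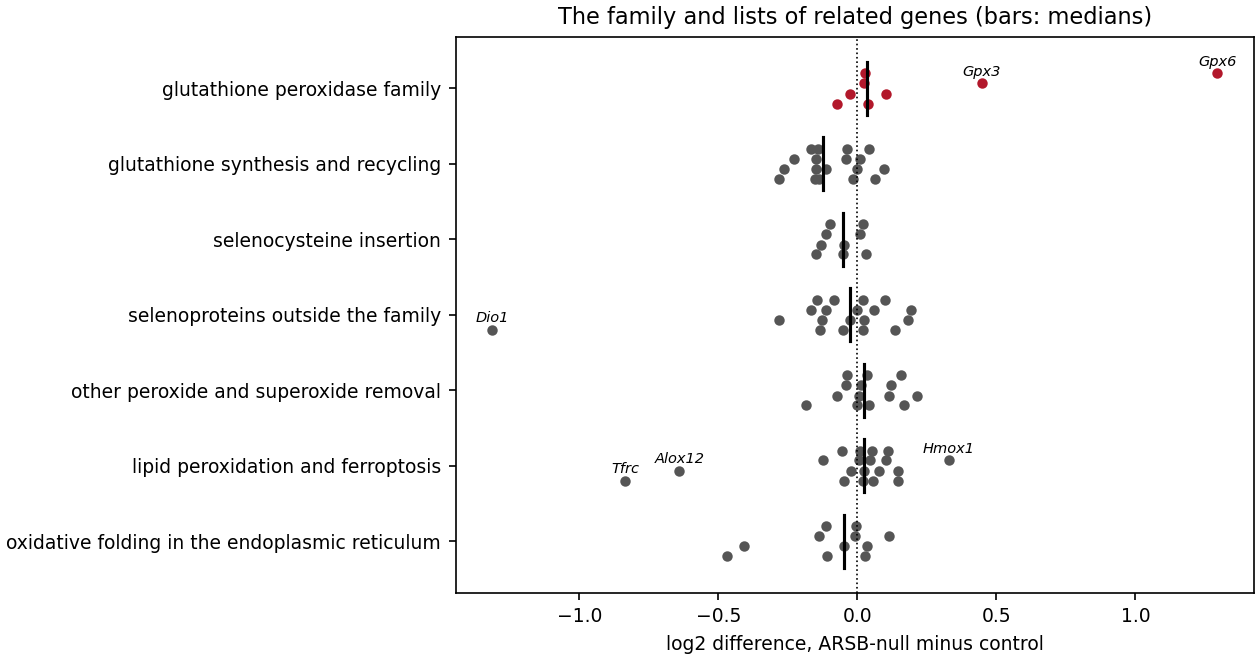
Difference in log2 signal, ARSB-null minus control (horizontal axis) of the 8 glutathione peroxidase genes (red) and of the measured genes of 6 related lists (grey), 1 point per gene, with the median of each list as a black bar. The medians lie between -0.12 and 0.03, with Gpx6 at 1.30 and Dio1 at -1.31 farthest from 0.

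The genotype and the tissue were checked on the same arrays. Arsb itself was 6.23-fold lower in ARSB-null liver on its brighter probe set, with a log2 signal of 7.57 ± 0.10 in ARSB-null and 10.21 ± 0.01 in control liver (SD, n = 3 each, adjusted p = 0.000639 from limma). Of 8 hepatocyte markers, all were measured and all lay above the median signal of the arrays, and their mean log2 signal was 13.60 to 13.72 in ARSB-null and 13.56 to 13.67 in control livers. The markers of tissues in which members of the family are best known were mostly dim. Under the median signal lay 7 of 8 markers of olfactory mucosa, 6 of 6 of epididymis, 5 of 8 of intestinal epithelium and 6 of 8 of kidney tubule. The olfactory genes were split by the sign of their log2 difference, 4 positive and 4 negative, around a median of 0.016. Obp2a, an odorant-binding protein on that list, averaged 5.27 in ARSB-null and 7.63 in control liver (log2 difference -2.36, adjusted p = 0.0941 from limma), and the groups overlapped for the other 7. The part of such tissues in the values of Gpx6 was not tested.

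Some markers of blood and immune cells also separated the groups, though none of those named here passed the adjusted threshold. The mean over 7 measured markers of lipid-laden macrophages was 7.95 to 8.13 in ARSB-null and 7.44 to 7.56 in control livers, and 5 of the 7 were higher in every ARSB-null liver (5.14% of all probe sets), among them Ms4a7 (1.39) and Mmp12 (0.96), with 0 of the 7 past the adjusted threshold and 5 higher at an unadjusted p under 0.05 from limma (2.75% of all probe sets). Over 8 markers of Kupffer cells and macrophages it was 9.14 to 9.24 in ARSB-null and 9.07 to 9.44 in control livers. The mean over 6 erythroid markers was 6.79 to 7.10 in ARSB-null and 7.20 to 7.47 in control livers. Slc4a1, the anion exchanger of red cells (log2 difference -1.56), and Alas2, the erythroid heme synthesis enzyme (-0.81), lay without overlap below the controls (6.78% of all probe sets did), and the groups overlapped for the other 4. The mean over 8 neutrophil markers was 5.59 to 5.69 in ARSB-null and 5.78 to 5.87 in control livers. Of the 8, 3 lay below the controls without overlap (6.78% of all probe sets did). Markers of B and plasma cells differed in both directions. Jchain (1.30) lay above and Cd72, a receptor on B cells (-1.12 with an adjusted p = 0.0553 from limma), below the controls without overlap. At an unadjusted p under 0.05 from limma, 1 of the 7 measured was higher (2.75% of all probe sets) and 4 were lower (3.19%). Of 6 bile duct markers, 1 lay below the controls without overlap (6.78% of all probe sets did). The part of these cells in the values of Gpx6 was not tested.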

How the data were processed

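The authors labeled RNA from 1 liver per mouse, hybridized it to a mouse gene array, and made signal distributions alike by quantile normalization before summarizing each probe set. RMA and Partek are named, with no version, in the submitters' processing notes. The deposited file holds log2 signals with array medians of 6.50 to 6.60. The sources used here name neither a genome build nor a probe set library. There are no detection calls, and precision is limited by the number of arrays. Quantile normalization would hide a change shared by most genes. Nothing says whether probes of one member bind transcripts of another.

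The array is of the second generation by the paper's methods, but the identifiers of the rows are those GEO annotates for the first generation, and every gene name here rests on that annotation. Gene names were taken from it, with symbols updated by gene identifier in the RefSeq table of GRCm38.p6 (0 changed). Of 35556 probe sets 21789 had 1 symbol, 1621 several and 12146 were not listed. All were tested by limma (version 3.58.1 in R 4.3.3; lmFit and eBayes, two-sided) with Benjamini-Hochberg adjustment at 0.05. The methods name an ANOVA per gene, which was an alternative.

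Named were the 8 members, Arsb, the 3 genes of each pathway list and up to 2 of a marker list with the smallest p, the 5 genes most like Gpx6 (no predicted genes or small RNAs), and the 3 measured genes on each side of it. Gclc, Gsr, Selenop and Cat were named after their values were seen. Members and lists were chosen with earlier results of these data known.

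The correlation of deviations from the group means between same-numbered mice was 0.396 (number 4), 0.159 (number 5) and 0.193 (number 6), above 0.1 in every pair. Across numbers, the highest correlation was 0.220, for ARSB-null 6 and control 5, which exceeds those of pairs 5 and 6, and the labels do not say what a number shares. All values come from the fit without pairing unless the block is named.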

Additional observations from a re-analysis of the deposited data

How the results depend on the processing

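The log2 difference of Gpx6 was positive under all 17 alternatives. It gained a call under 3 of them: with the probe sets of 1 symbol alone (1.30, adjusted p 0.0129), with array weights (1.41, 0.0398), and with the 1-symbol probe sets and the replicate block together (1.30, 0.00628), the last chosen after seeing the data. The count of members higher was 1 under each of these and 0 otherwise, and the count of members lower was 0 throughout. More probe sets of the whole array were past the threshold in these 3 fits too. With 1 symbol alone 27 were higher and 33 lower (of 21789), and with array weights 14 and 14 (of 35556). With 1 symbol and the replicate block together 43 were higher and 63 lower (of 21789), against 2 and 5 in the main fit (of 35556). With the replicate block alone, the difference was 1.30 (adjusted p 0.277) and no call of a member changed. That block treats mice of the same number as pairs, which the labels do not state. The probe sets above the median signal, tested alone, gave an adjusted p of 0.0730, and the one-way ANOVA gave an adjusted p of 0.454. Leaving out each array in turn gave differences of 1.13 to 1.40, and leaving out both arrays numbered 4 gave 1.46 (adjusted p 0.284). The causes were not tested. For the other 7 members, all 116 values kept their side of the threshold, and 17 of them changed sign, for Gpx1, Gpx2, Gpx4, Gpx5, Gpx7 and Gpx8, whose differences were near 0. Without detection calls, signal over background is not known, which limits Gpx5 and Gpx2 most. It also limits Gpx7, whose mean of 6.27 over all arrays lay below the array medians, and Gpx6 in control liver, where its mean of 6.13 did.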
